A study of Mus musculus with 4 samples.

Results

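The 35 genes described here encode the contractile lattice of adult skeletal muscle and the proteins that couple its electrical excitation to contraction. They were chosen by gene symbol from a table of 24328 symbols, and all 35 were in it. They were divided by the muscle fibre type in which the protein is best known: 14 fast genes, 7 slow genes and 14 shared genes. Sorted muscle stem cells (satellite cells) from mice perfused with paraformaldehyde (PFA) gave 4 libraries of polyadenylated RNA, 2 labelled YFP and 2 labelled DEK. The YFP mice were Pax7CreERT2/+; ROSA26YFP/+ animals aged 7 months, and the DEK mice were Pax7CreERT2/+; H11DEK-EGFP/+ animals aged 4.5 months. All groups therefore carried the Pax7CreERT2 allele, in which the satellite cell gene Pax7 drives a tamoxifen-dependent Cre recombinase. Age, reporter and transgene locus went with the group and cannot be told apart from the effect of raised DEK, a DNA-binding chromatin protein. Neither the sex and number of mice nor the sort gate is stated, nor whether replicates were separate animals, so each p-value measures only the spread between these libraries, which may be technical.

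A sarcomere is the repeating contractile unit of a muscle fibre. Thick filaments of myosin pull on thin filaments of actin, tropomyosin and troponin, while titin and nebulin act as scaffolds and the Z-disc and M-band hold the filaments in register. Depolarisation of the membrane is sensed by a voltage-gated channel that opens the ryanodine receptor, calcium leaves the sarcoplasmic reticulum and binds troponin C, and the SERCA pump takes it back. Satellite cells are undifferentiated, and the adult forms of these proteins are known mainly from the fibres they lie on.

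Dek had values of 512 and 504 FPKM in the YFP libraries, against 3196 and 1639.5 FPKM in DEK replicates 1 and 2, so both DEK libraries stood above both YFP libraries. Its log2 fold change was 2.17 (limma adjusted p = 0.0195). On the same genes it was 2.18 and 2.16 without YFP replicates 1 and 2, and 1.69 and 2.65 without DEK replicates 1 and 2. Of these fits Dek passed the test only in the last, and without DEK replicate 1 no gene of any kind passed. A call lost there is thus not particular to a gene. FPKM, a fragment count divided by transcript length and by library size, allows levels of different genes to be compared, and the table gives no read counts, so depth is unknown. The column totals lay between 541183 and 545123 FPKM, and 11669 to 12000 genes reached 1 FPKM in each library. In YFP 11.8 and 15.7% of the total came from Rn45s, which encodes ribosomal RNA, against 5.15 and 5.55% in DEK. The 11 satellite cell markers were all tested, and 1 of them, Chrdl2, passed the test, higher in DEK, a call lost on the same genes without any 1 of the libraries. Pax7 was at 106 and 93.9 FPKM in YFP and 119 and 184 FPKM in DEK. The summed level of 12 endothelial markers was 70.6 and 62.5 FPKM in YFP and 265 and 217 FPKM in DEK, and 10 of them rose. Most of the YFP sum was Tek, at 55.9 and 56.7 FPKM in YFP and 78.8 and 66.5 FPKM in DEK, which was not called. Kdr and Ptprb were listed at 0 in both YFP libraries. The summed level of 9 macrophage markers was 2.91 and 27.2 FPKM in YFP and 202 and 198 FPKM in DEK, and 5 of the 8 tested rose. Of 5 tenocyte markers, 3 of the 4 tested rose, namely Tnmd, Fmod and Thbs4. On the same genes these calls were kept without either YFP library and lost without either DEK library. With genes filtered afresh on the other libraries, Fmod and Thbs4 stayed called without either DEK library, while Tnmd was not tested. Of 8 markers of fibro-adipogenic progenitors, 3 rose (Ly6a, Dcn and Dpt) and 2 fell (Col1a1, from 146 and 90.1 to 13.3 and 36.1 FPKM, and Col3a1). On the same genes, fewer endothelial, macrophage and fibro-adipogenic markers were called without any 1 of the libraries, as were fewer of all genes tested. Of the markers that rose, Pecam1, Cdh5, Kdr, Tie1, Emcn, Ptprb, Ly6c1, Egfl7, Esam, Csf1r, C1qa, C1qb, C1qc and Tnmd were under 1 FPKM in both YFP libraries. They met the filter (1 FPKM in at least 2 libraries) through DEK alone, which favours a rise. The part of the cells that these markers stand for in the results on sarcomere genes was not tested. In bulk RNA fewer cells of a type and less RNA per cell cannot be told apart.

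DEK was compared with YFP to see how the sarcomere genes differ in stem cells that carry the DEK transgene. Actn3, which encodes the alpha-actinin of fast fibres, rose 5.31-fold, and Ttn, which encodes the giant spring protein titin, fell 5.49-fold. No other member passed the test. A member was tested where at least 2 libraries reached 1 FPKM. Actn2, Ryr1, Mb, Ldb3 and Myom1 met this filter through 1 group alone, which favours a difference between the groups. A member was called where limma's p, adjusted by the Benjamini-Hochberg method over all 12179 genes tested, was under 0.05. Of the 35 members 21 were tested: 6 fast, 3 slow and 12 shared genes. The 2 members called among the 21 are 9.52%, beside 7.78% of all genes tested, with 4.57% called higher and 3.21% called lower. Higher in DEK were 58.8% of all genes called, against 45.4% after quantile normalization and 43.2% with Rn45s removed. At an unadjusted p under 0.05 there were 9 of 21 members (42.9%), 7 higher and 2 lower, beside 29.1% of all genes. On the same genes that count was 7 without YFP replicate 1, 5 without YFP replicate 2, 6 without DEK replicate 1 and 9 without DEK replicate 2, beside 24.8, 19.1, 18.2 and 23.8% of all genes. The groups did not overlap in 16 of 21 members (76.2%), beside 60.9% of all genes. DEK was the higher group in 10 of the 16 and the lower in 6, beside 34.0% and 26.9% of all genes. The median log2 fold change was 0.26 over the 21 tested members and 0.05 over all genes tested. It was 0.89 for the fast genes, 0.34 for the slow genes and -0.18 for the shared genes. On the same genes the fast median was 0.27 without DEK replicate 1 and 1.68 without DEK replicate 2, and the shared median was -0.09 without DEK replicate 1.

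**Figure D1:**
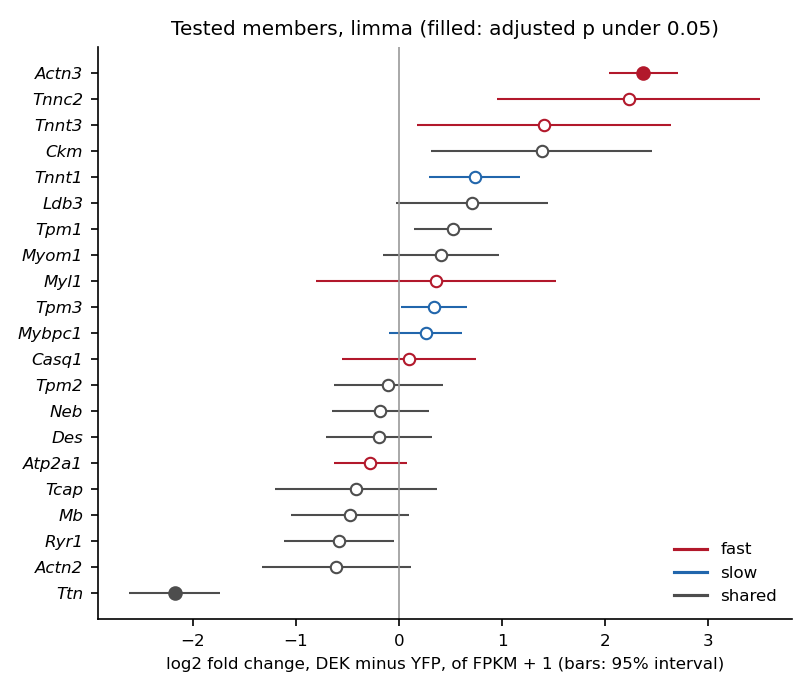
Log2 fold change of DEK against YFP, on the log2(FPKM + 1) scale, for each of the 21 tested members with bars for the 95% confidence interval from limma, in the colour of its fibre class (filled where called). Actn3 at 2.37 and Ttn at -2.17 passed the test, while Tnnc2 at 2.23 had a wide interval, from 0.95 to 3.50.

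The promoters of 4 members with large differences between libraries are shown first. Ttn fell, and Tnnc2, Ckm and Myl1 stood far higher in DEK replicate 1 than in DEK replicate 2; these genes were chosen for printing after their values were seen. Each sequence holds the 250 bases before the annotated start in RefSeq, on build GRCm38.p6, and runs 5′ to 3′ along the gene's own strand. Capitals mark E-boxes (CANNTG, the motif bound by MyoD-family factors, which reads the same on both strands) and, in Ttn, the MEF2 site as well. The Ttn window is chr2:76982548-76982797 on the minus strand, with an E-box that starts 138 bases and a MEF2 site that starts 166 bases before the annotated start, without overlap. The Tnnc2 window is chr2:164779735-164779984 on the minus strand, with E-boxes starting 183 and 88 bases before the start. The Ckm window is chr7:19410844-19411093 on the plus strand and the Myl1 window is chr1:66945057-66945306 on the minus strand, each with 1 E-box.
Ttn: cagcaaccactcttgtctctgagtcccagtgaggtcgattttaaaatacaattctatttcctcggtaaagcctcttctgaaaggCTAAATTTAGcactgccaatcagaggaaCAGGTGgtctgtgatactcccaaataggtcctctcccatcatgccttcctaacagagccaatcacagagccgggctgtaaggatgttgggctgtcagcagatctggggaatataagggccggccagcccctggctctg
Tnnc2: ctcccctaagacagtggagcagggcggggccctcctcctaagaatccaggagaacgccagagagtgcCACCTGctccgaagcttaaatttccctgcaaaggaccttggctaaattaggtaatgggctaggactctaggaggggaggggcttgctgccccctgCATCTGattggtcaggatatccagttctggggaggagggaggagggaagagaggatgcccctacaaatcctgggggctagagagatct
Ckm: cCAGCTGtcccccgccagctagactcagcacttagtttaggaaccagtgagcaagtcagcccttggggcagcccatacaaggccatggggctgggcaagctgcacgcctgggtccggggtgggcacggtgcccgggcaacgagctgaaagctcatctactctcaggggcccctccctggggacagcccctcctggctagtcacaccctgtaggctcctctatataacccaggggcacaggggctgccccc
Myl1: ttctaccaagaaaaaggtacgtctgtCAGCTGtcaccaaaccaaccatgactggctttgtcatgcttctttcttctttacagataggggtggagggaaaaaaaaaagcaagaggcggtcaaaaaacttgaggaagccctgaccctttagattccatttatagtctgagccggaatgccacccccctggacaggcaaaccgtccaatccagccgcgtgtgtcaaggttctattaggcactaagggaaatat
Promoter entries were matched for 28 of the 35 genes, with 35 windows in all. An E-box was found in 29 of the 35 windows (82.9%), beside 66.2% of 32851 windows of the same length. A MEF2 site was found in 4 windows (11.4%), those of Myh1, Myh4, Pvalb and Ttn, beside 2.92% of all windows. A match of letters is a description of the sequence and shows no binding.

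Ttn measured 18.4 and 21.0 FPKM in YFP replicates 1 and 2, against 3.34 and 3.82 FPKM in DEK replicates 1 and 2. Both DEK libraries lay far below both YFP libraries, and replicates lay close together. The means were 19.7 ± 1.86 and 3.58 ± 0.339 FPKM (SD, n = 2 each), a log2 fold change of -2.17 (SE 0.18, 95% confidence interval -2.61 to -1.73, limma adjusted p = 0.00436). Neb encodes nebulin, the scaffold and length ruler of the thin filament. It was at 4.33 and 4.20 FPKM in YFP and 3.92 and 3.38 FPKM in DEK, with a log2 fold change of -0.18 (interval -0.65 to 0.29). The 2 large scaffold genes thus differed in size of change by their point estimates, although the difference between them was not tested. On the same genes, the call of Ttn was lost without YFP replicate 2, without DEK replicate 1 and without DEK replicate 2. The log2 fold changes were -2.08, -2.10 and -2.25, and without DEK replicate 1 no gene of any kind was called. The strand of the reads is not stated, and the annotated antisense gene Gm13938 overlaps Ttn, so reads of the pair cannot be told apart. Ccdc141, which lies next to Ttn and was chosen after its values were seen, was also lower. It was at 3.46 and 3.62 FPKM in YFP and 1.18 and 1.24 FPKM in DEK, a log2 fold change of -1.04 (limma adjusted p = 0.0372), and its call was lost without any 1 of the libraries, with adjusted p between 0.104 and 0.191 on the same genes.

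At the Z-disc, which anchors the thin filaments, Actn3 was the tested member that rose. It was at 30.1 and 27.4 FPKM in YFP, against 148 and 158 FPKM in DEK. The groups were wide apart and each pair of replicates lay close together. The means were 28.8 ± 1.88 and 153 ± 6.62 FPKM (SD, n = 2 each), a log2 fold change of 2.37 (SE 0.14, 95% confidence interval 2.04 to 2.70, limma adjusted p = 0.00310). Among all 24328 symbols, Actn3 ranked 2908 and 3042 by level in YFP and 512 and 506 in DEK. Without DEK replicate 1, on the same genes, the call of Actn3 was lost, as was that of every gene, and its log2 fold change was 2.41. Its nearest neighbours within 1 kb did not pass the test: Ctsf had a log2 fold change of -0.40 and Zdhhc24 of 0.40 (limma adjusted p = 0.134 and 0.244). Both were chosen after the value of Actn3 was seen.

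Actn2, the alpha-actinin found in all fibres, was near the filter of 1 FPKM, at 1.13 and 2.29 FPKM in YFP and 0.978 and 0.529 FPKM in DEK. Its log2 fold change of -0.61 did not pass the test (limma adjusted p = 0.231). Actn3 made up 96.4 and 92.3% of the summed Actn3 and Actn2 level in YFP and 99.3 and 99.7% in DEK. The nonmuscle alpha-actinin Actn1 fell, from 114 and 163 FPKM in YFP to 52.7 and 74.6 FPKM in DEK (log2 fold change -1.11, limma adjusted p = 0.0477), a call made in 7 of 17 alternatives and lost, on the same genes, without any 1 of the libraries. Actn4, also a nonmuscle alpha-actinin gene, was at 663 and 682 FPKM in YFP and 713 and 787 FPKM in DEK. It was higher in DEK without overlap and did not pass the test (log2 fold change 0.15, limma adjusted p = 0.516). Actn1 thus stood in the direction opposite to Actn3, and Actn4 in the same direction as Actn3.

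Des encodes desmin, the intermediate filament that links Z-discs and that satellite cells are known to express. It had the highest mean level of the 35 members, at 244 and 234 FPKM in YFP and 171 and 256 FPKM in DEK. DEK replicate 1 was the lowest library and DEK replicate 2 the highest, so the groups overlapped. The means were 239 ± 6.57 and 214 ± 60.0 FPKM (SD, n = 2 each), a log2 fold change of -0.19 (SE 0.21, interval -0.70 to 0.33, limma adjusted p = 0.590). The titin-cap gene Tcap was at 4.80, 5.31, 5.19 and 2.32 FPKM in YFP 1, YFP 2, DEK 1 and DEK 2, low in DEK replicate 2 alone. Ldb3, which encodes a Z-disc adaptor, was at 0.335 and 0.936 FPKM in YFP and 2.18 and 1.17 FPKM in DEK and did not pass the test (log2 fold change 0.71, limma adjusted p = 0.185). Myoz1, a calcineurin-binding Z-disc gene of fast fibres, was not tested, with 0.404 to 1.60 FPKM over the 4 libraries.

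**Figure D2:**
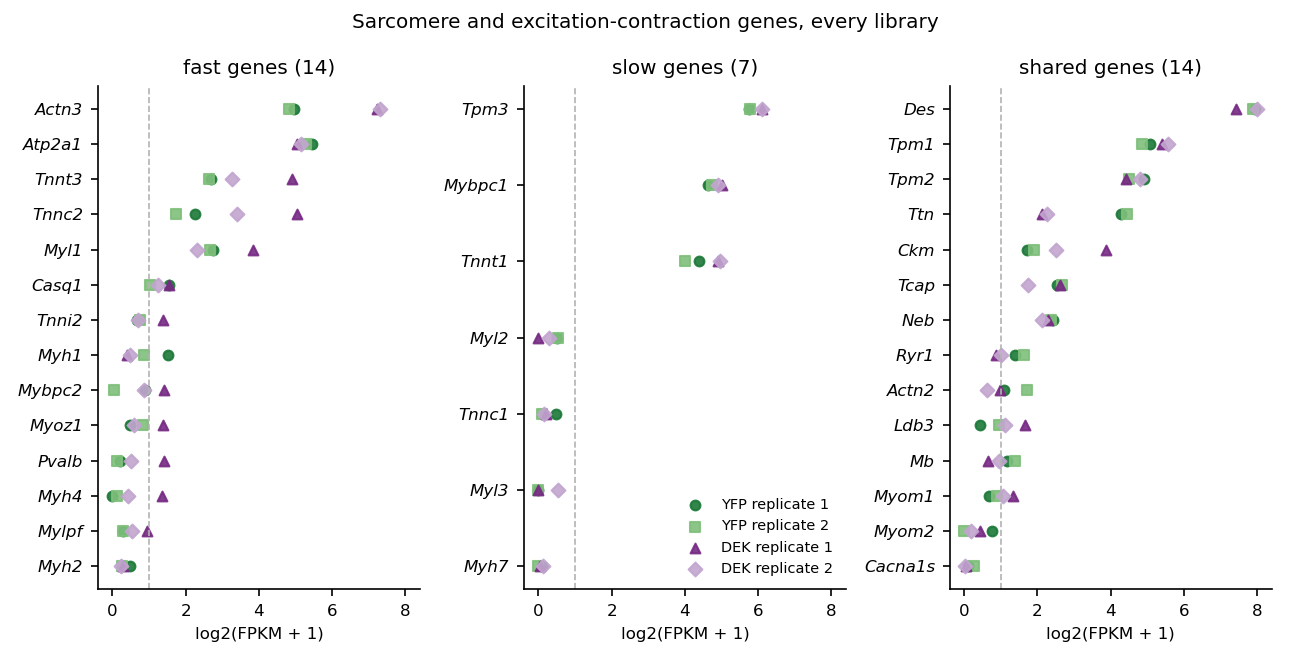
Level of each of the 35 members, as log2(FPKM + 1) on the horizontal axis, with 1 symbol per library and 1 panel per fibre class. The dashed line marks 1 FPKM. Des stands highest in every library, and 8 members stay under 1 FPKM in all 4 libraries.

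The thin filament carries the calcium switch of contraction, and 6 of its 8 members were tested. At an unadjusted p under 0.05, 5 of the 6 were higher in DEK, beside 16.9% of all genes, and none was called after adjustment. On the same genes fewer of the 6 were higher at that p without any 1 of the libraries, and the share of all genes fell as well. The median log2 fold change of the 6 was 0.63. On the same genes it was 0.78 and 0.48 without YFP replicates 1 and 2, and 0.59 and 0.58 without DEK replicates 1 and 2. The tropomyosins lie along actin and block or open its myosin-binding sites. Tpm3, the slow tropomyosin whose gene also makes nonmuscle forms, was at 53.0 and 54.4 FPKM in YFP and 68.4 and 68.1 FPKM in DEK, without overlap. The means were 53.7 ± 0.968 and 68.3 ± 0.255 FPKM (SD, n = 2 each), with a log2 fold change of 0.34 (SE 0.13, interval 0.03 to 0.66, limma adjusted p = 0.150). Tpm1 was at 32.6 and 28.1 FPKM in YFP and 41.5 and 46.4 FPKM in DEK, also without overlap. Its means were 30.3 ± 3.19 and 43.9 ± 3.45 FPKM (SD, n = 2 each), with a log2 fold change of 0.52 (SE 0.15, interval 0.15 to 0.90, limma adjusted p = 0.0916). Tpm2 was at 29.1 and 21.5 FPKM in YFP and 20.2 and 26.7 FPKM in DEK, and the groups overlapped. Its means were 25.3 ± 5.34 and 23.5 ± 4.62 FPKM (SD, n = 2 each), with a log2 fold change of -0.10 (SE 0.22, interval -0.63 to 0.43, limma adjusted p = 0.787).

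Troponin T binds the troponin complex to tropomyosin. Its slow form Tnnt1 was at 20.0 and 15.1 FPKM in YFP and 29.1 and 30.2 FPKM in DEK. Both DEK libraries were above both YFP libraries and lay closer to each other than the YFP libraries did. The means were 17.5 ± 3.45 and 29.6 ± 0.792 FPKM (SD, n = 2 each), a log2 fold change of 0.74 (SE 0.18, interval 0.29 to 1.18, limma adjusted p = 0.0638). The fast form Tnnt3 was at 5.48 and 5.27 FPKM in YFP, against 28.9 and 8.55 FPKM in DEK. The groups did not overlap, but the DEK libraries differed by 3.38-fold. The means were 5.38 ± 0.142 and 18.8 ± 14.4 FPKM (SD, n = 2 each), a log2 fold change of 1.41 (SE 0.50, interval 0.18 to 2.64, limma adjusted p = 0.135). Tnnt3 made up 21.5 and 25.9% of the summed troponin T level of the pair in YFP, 49.9% in DEK replicate 1 and 22.1% in DEK replicate 2. The share in DEK replicate 2 thus lay within the range of YFP.

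Tnnc2 encodes the troponin C of fast fibres, the calcium sensor. It was at 3.76 and 2.33 FPKM in YFP, against 31.8 and 9.60 FPKM in DEK. Both DEK libraries were above YFP, and DEK replicate 1 was 3.31 times DEK replicate 2. Given in full after its values were seen, the gene had means of 3.04 ± 1.01 and 20.7 ± 15.7 FPKM (SD, n = 2 each) and a log2 fold change of 2.23 (SE 0.52, interval 0.95 to 3.50, limma adjusted p = 0.0577). With the replicate number as a block its limma adjusted p was 0.0271, and among genes at 5 FPKM or more in 2 libraries it was 0.0489. In all, Tnnc2 was called in 3 of 17 alternatives, with log2 fold changes from 1.41 to 3.04. Tnni2, the fast inhibitory subunit, was not tested and was at 0.596, 0.678, 1.60 and 0.628 FPKM in YFP 1, YFP 2, DEK 1 and DEK 2. Slow troponin C, Tnnc1, stayed between 0.0735 and 0.403 FPKM, although it overlaps the far more abundant Nisch. Annotated genes on the opposite strand also overlap Tnnc2 (Ube2c) and Tnnt3 (Prr33), whose log2 fold changes were -1.60 and -0.87 and did not pass the test (limma adjusted p = 0.0675 and 0.0877). In the GENCODE M21 annotation 21 of the 35 members overlap a gene on the other strand, a protein-coding gene in 8 of them.

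The thick filament had 10 members, of which 2 were tested. The myosin heavy chain genes of adult fibres were near or at 0. The fast heavy chain Myh1 was at 1.88 and 0.823 FPKM in YFP and 0.326 and 0.395 FPKM in DEK, and Myh4 was at 0 and 0.0861 FPKM in YFP and 1.53 and 0.346 FPKM in DEK. Myh2 lay between 0.182 and 0.397 FPKM, and the slow heavy chain Myh7 reached at most 0.0939 FPKM. The fast heavy chain genes are close copies of each other, so how the counting divided their reads is uncertain. Of the light chains, the slow genes Myl2 and Myl3 reached at most 0.459 and 0.437 FPKM, and the fast regulatory chain Mylpf lay between 0.217 and 0.920 FPKM. No adult heavy chain gene thus reached 2 FPKM in any library.

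Myl1, the fast essential light chain, was the light chain that was tested. It was at 5.67 and 5.37 FPKM in YFP, at 13.2 FPKM in DEK replicate 1 and at 3.93 FPKM in DEK replicate 2. The DEK libraries lay on opposite sides of YFP, 2.40 times and 0.712 times its mean. The log2 fold change was 0.36 (SE 0.47, interval -0.80 to 1.52, limma adjusted p = 0.651), in a gene given in full after its values were seen. Mybpc1 encodes slow myosin-binding protein C, which braces the thick filament. It was at 24.0 and 26.0 FPKM in YFP and 31.1 and 29.2 FPKM in DEK, with no overlap. The means were 25.0 ± 1.37 and 30.1 ± 1.33 FPKM (SD, n = 2 each), a log2 fold change of 0.26 (SE 0.14, interval -0.09 to 0.61, limma adjusted p = 0.285). The fast form Mybpc2 was not tested, and it made up 0.111 to 5.05% of the summed level of the pair. The M-band genes Myom1 and Myom2, which crosslink thick filaments, were at 0.600 to 1.51 FPKM and 0 to 0.706 FPKM.

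Of the 5 calcium-handling members 3 were tested and none was called. At an unadjusted p under 0.05 there was 1, Ryr1, the ryanodine receptor of skeletal muscle. Ryr1 was at 1.62 and 2.09 FPKM in YFP and 0.809 and 0.994 FPKM in DEK, with both DEK libraries lower (log2 fold change -0.58, SE 0.22, limma adjusted p = 0.147). Atp2a1, the fast SERCA pump, was the most abundant of the 5 in every library. It was at 42.8 and 38.2 FPKM in YFP and 31.9 and 34.6 FPKM in DEK, lower in DEK without overlap. The means were 40.5 ± 3.26 and 33.3 ± 1.90 FPKM (SD, n = 2 each), a log2 fold change of -0.28 (SE 0.15, interval -0.63 to 0.08, limma adjusted p = 0.261). Atp2a1 made up 60.6 to 65.8% of its summed level with the slow and cardiac pump gene Atp2a2 over the 4 libraries.

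Casq1, the calcium buffer of the sarcoplasmic reticulum in fast fibres, was at 1.94, 1.05, 1.92 and 1.37 FPKM in YFP 1, YFP 2, DEK 1 and DEK 2. The groups overlapped, and the log2 fold change was 0.10 (interval -0.55 to 0.75). Its slow and cardiac counterpart Casq2, which is not among the 35, was at 0.0290 and 0.163 FPKM in YFP and 1.68 and 2.50 FPKM in DEK. Casq2 rose by a log2 fold change of 1.48 (SE 0.24, limma adjusted p = 0.0262), a value that the added 1 FPKM makes small, and the call was lost, on the same genes, without any 1 of the libraries. Of the 10 smooth muscle and pericyte markers tested, 2 rose, Myh11 (0.175 and 0 FPKM in YFP, 3.21 and 3.53 FPKM in DEK) and Rgs5, and on the same genes 1, 0, 0 and 0 did without YFP 1, YFP 2, DEK 1 and DEK 2. Of the 10, 7 were higher in DEK without overlap and 2 lower, beside 34.0% and 26.9% of all genes. Higher but not called were Tagln, Cnn1, Smtn, Pdgfrb and Mylk. The 2 lower genes did not pass the test either (limma adjusted p = 0.0529 and 0.148). They were Acta2, at 193 and 166 FPKM in YFP and 74.2 and 111 FPKM in DEK, and Kcnj8. The summed level of the list was 364, 339, 313 and 404 FPKM in the same order of libraries. The part of such cells in the level of Casq2 was not tested. Casq2 and Myh11 met the filter of 1 FPKM through DEK alone, which favours a rise. Casq1 made up 98.5 and 86.5% of the summed calsequestrin level in YFP and 53.4 and 35.4% in DEK. Cacna1s, the voltage sensor, was not tested and reached at most 0.200 FPKM. Pvalb, the calcium buffer of fast fibre cytoplasm, was not tested either, at 0.145 and 0.0798 FPKM in YFP and 1.64 and 0.428 FPKM in DEK.

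The 2 energy and oxygen members were both tested. Ckm, the muscle creatine kinase, was at 2.26 and 2.77 FPKM in YFP, against 13.7 and 4.69 FPKM in DEK. Both DEK libraries were above YFP, by 5.44 and 1.87 times its mean. Given in full after its values were seen, its log2 fold change was 1.38 (SE 0.44, interval 0.31 to 2.46, limma adjusted p = 0.106). Myoglobin, Mb, was at 1.24 and 1.63 FPKM in YFP and 0.579 and 0.940 FPKM in DEK, with a log2 fold change of -0.47 that did not pass the test (limma adjusted p = 0.236).

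**Figure D3:**
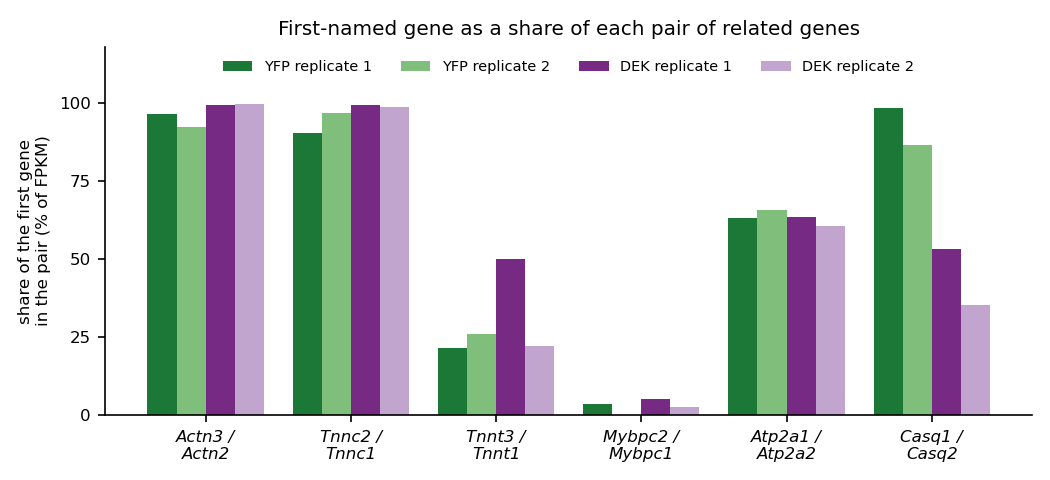
Share of the first-named gene in the summed FPKM of 6 pairs of related genes, in percent on the vertical axis, with 1 bar per library. The Casq1 share is 98.5 and 86.5% in YFP and 53.4 and 35.4% in DEK, and the Tnnt3 share is high in DEK replicate 1 alone, at 49.9%.

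The spread between the DEK replicates was itself uneven among the members. DEK replicate 1 was at 2 or more times DEK replicate 2 in 5 of the 21 tested members (23.8%), beside 2.70% of all genes tested. These were Myl1, Tnnc2, Tnnt3, Tcap and Ckm, with ratios from 2.23 to 3.38. By class, it held for 3 of 6 tested fast genes, 0 of 3 tested slow genes and 2 of 12 tested shared genes. Of all 35 members it held for 13, 9 of 14 fast genes, 0 of 7 slow genes and 4 of 14 shared genes. The untested members among them reached at most 1.88 FPKM, and the share over all symbols was not counted. In YFP, replicate 1 was at 2 or more times replicate 2 in 0 of 21 tested members, beside 3.56% of all genes. DEK replicate 1 was above DEK replicate 2 in 12 of the 21 tested members (57.1%), beside 37.4% of all genes tested. Actn3 was not among the 5, with replicates at 148 and 158 FPKM.

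The summed level of the 14 fast members was 94.3 and 82.6 FPKM in YFP and 265 and 219 FPKM in DEK. Without Actn3 the fast sum was 64.2 and 55.1 FPKM in YFP, 117 FPKM in DEK replicate 1 and 61.8 FPKM in DEK replicate 2, which lay within the YFP range. Without Atp2a1 as well it was 21.3 and 16.9 FPKM in YFP, 85.4 FPKM in DEK replicate 1 and 27.2 FPKM in DEK replicate 2, both above YFP. The slow sum was 97.9 and 96.0 FPKM in YFP and 129 and 128 FPKM in DEK. Its largest part was Tpm3, whose gene also makes nonmuscle forms, at 53.0 and 54.4 FPKM in YFP and 68.4 and 68.1 FPKM in DEK. Nearly all the rest came from Tnnt1 and Mybpc1. The shared sum was 341, 325, 266 and 348 FPKM in YFP 1, YFP 2, DEK 1 and DEK 2. Without Des the shared sum was 97.1, 90.9, 94.3 and 92.2 FPKM in the same order, with no dip in DEK replicate 1. The 6 markers of mature fibres outside the 35 members (Acta1, Ckmt2, Eno3, Pygm, Ampd1 and Cox6a2) summed to 71.7 and 61.1 FPKM in YFP and 72.6 and 54.1 FPKM in DEK. Acta1, the largest part of the YFP sums, was at 47.4 and 39.5 FPKM in YFP and 32.0 and 13.1 FPKM in DEK. It was lower in DEK without overlap, whereas Ckmt2, Eno3, Pygm and Ampd1 were higher without overlap and Cox6a2 overlapped. Of the 6 markers, 5 were higher in DEK replicate 1 than in DEK replicate 2, and Ckmt2 was listed at 0 in both YFP libraries. The 5 erythroid markers summed to 7.71 and 0.299 FPKM in YFP, 24.9 FPKM in DEK replicate 1 and 347 FPKM in DEK replicate 2. Of the 4 tested, 1 was called, Hba-a1, higher in DEK (log2 fold change 5.16, limma adjusted p = 0.0346). Hba-a1 met the filter through DEK alone, which favours a rise. The 5 cardiac markers stayed at a sum of 1.16 FPKM or less. The part of fibre RNA or of other cells in the spread between the DEK libraries was not tested. On the same genes, leaving out 1 DEK library lowered the calls over all genes tested, so a lost call is not particular to a member. The median log2 fold change of the tested members there was 0.10 without DEK replicate 1 and 0.30 without DEK replicate 2. With genes filtered afresh on the other libraries, 19 members were tested without DEK replicate 1 and 19 without DEK replicate 2. Ttn was called lower and Actn3 higher in both of these fits. Without DEK replicate 2, Ckm, Myl1, Tnnc2 and Tnnt3 were called higher as well. Over all genes, too, more were called there than without DEK replicate 1.

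**Figure D4:**
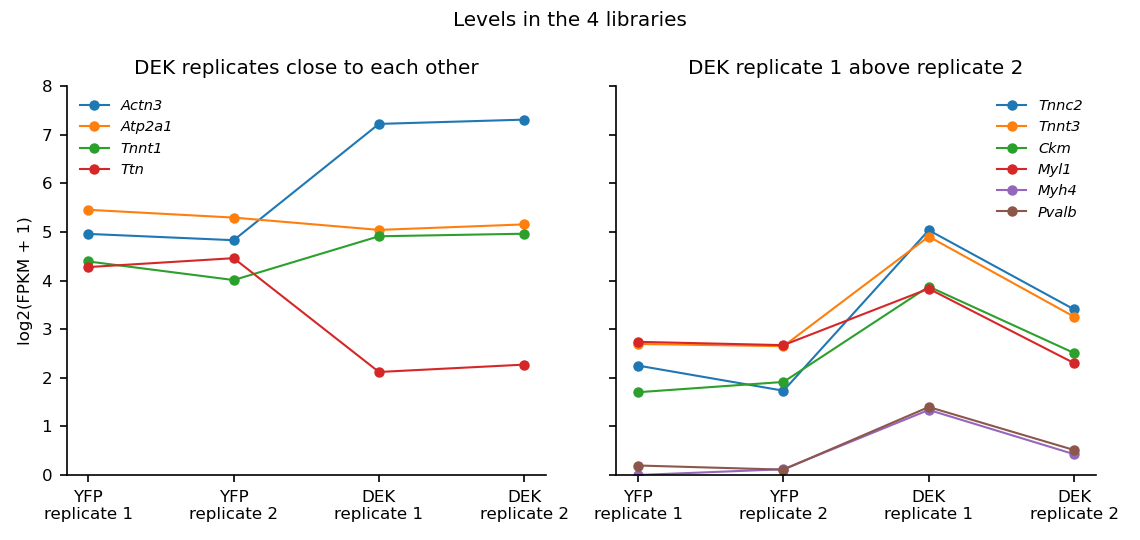
Level of 10 members as log2(FPKM + 1) on the vertical axis in the 4 libraries, with lines that only join the points of a gene. In Tnnc2, Tnnt3, Ckm, Myl1 and Pvalb DEK replicate 1 is 2.91 to 3.82 times DEK replicate 2, while in Actn3 and Ttn the DEK replicates lie close to each other.

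Other genes of the same machinery were taken as 6 lists. Over the 6 lists 15 of 83 tested genes were called, beside 7.78% of all genes tested. The lists were chosen with earlier results of these data known, so these shares are a description. On the same genes most of the 15 calls were lost without any 1 of the libraries, as were most calls over all genes. Tmod1, Klhl41, Mylk4, Myh8, Cav3 and Casq2 met the filter of 1 FPKM through 1 group alone, which favours a difference between the groups. Of 39 other sarcomere genes 18 were tested, 2 rose and 3 fell, and the median log2 fold change of those tested was -0.21. Tmod1, which caps the pointed ends of thin filaments, fell from 8.64 and 8.21 FPKM in YFP to 0.746 and 0.774 FPKM in DEK (log2 fold change -2.42, SE 0.19, limma adjusted p = 0.00405). Klhl41 and the myosin light chain kinase Mylk4 also fell, by 1.16 and 1.34 on the log2 scale (limma adjusted p = 0.0374 and 0.0308). Rising were Ankrd1, which binds titin, from 19.3 and 14.0 to 41.7 and 47.0 FPKM (log2 fold change 1.37, limma adjusted p = 0.0182), and the actin-binding gene Synpo2 (1.13, limma adjusted p = 0.0440). Acta1, the actin of adult skeletal fibres, was at 47.4, 39.5, 32.0 and 13.1 FPKM in YFP 1, YFP 2, DEK 1 and DEK 2 and did not pass the test (log2 fold change -1.04, limma adjusted p = 0.146).

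Of the 6 developmental sarcomere genes 4 were tested and 3 fell. Actc1, the actin of heart and of forming muscle, fell from 123 and 93.1 FPKM in YFP to 1.16 and 6.01 FPKM in DEK (log2 fold change -4.80, limma adjusted p = 0.00931). The perinatal myosin Myh8 and the embryonic light chain Myl4 fell by 1.63 and 0.92 on the log2 scale (limma adjusted p = 0.0173 and 0.0431). Of 26 other genes of excitation-contraction coupling 19 were tested, 1 rose (Casq2) and 1 fell. The gene that fell was Cav3, the muscle caveolin, at 3.85 and 2.01 FPKM in YFP and 0.266 and 0.464 FPKM in DEK (log2 fold change -1.49, SE 0.29, limma adjusted p = 0.0386). Of 15 other muscle energy genes 11 were tested and 1 fell, the cytochrome oxidase subunit gene Cox8b, at 8.43 and 9.06 FPKM in YFP and 3.71 and 3.73 FPKM in DEK (log2 fold change -1.05, limma adjusted p = 0.0293).

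Among 20 transcriptional regulators of muscle genes 19 were tested, none rose and 2 fell. Myog, the factor of terminal muscle differentiation, was at 124 and 98.3 FPKM in YFP and 2.44 and 13.7 FPKM in DEK (log2 fold change -3.97, limma adjusted p = 0.0242). Hdac5, a repressor of MEF2 factors, fell by 0.95 on the log2 scale (limma adjusted p = 0.0409). All 12 nonmuscle counterparts were tested, and besides Actn1, which fell, the cytoplasmic actin Actg1 rose from 35.5 and 33.5 to 77.3 and 68.7 FPKM (log2 fold change 1.06, limma adjusted p = 0.0159).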

How the data were processed

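The deposited values, 1 for each symbol in each library, are taken to be the authors' FPKM. Per the submitters' processing notes, STAR 2.5.3a, StringTie 1.3.3, R 3.4.1 and build mm9 were used. The unit is inferred from the values, and TPM cannot be told apart with certainty. Settings, annotation, filters and strand are not given in the sources used here, depth is unknown, and 0 columns were left out. Values were taken as log2(FPKM + 1), which makes changes of low genes smaller, and fitted with limma 3.58.1 in R 4.3.3 (empirical Bayes with a variance trend, no covariates, two-sided). The test took the 12179 of 24328 genes that reached 1 FPKM in 2 or more libraries, with a call at an adjusted p under 0.05; the fit was tested on simulated data. Fold changes stated as such are ratios of mean FPKM, and intervals are 95% confidence intervals of the log2 fold change. Full statistics were given for called members and the 3 most abundant tested members of each class, values per library for members averaging 5 FPKM or more, and for lists the genes called and up to 4 with the smallest p, of which not all are described. Members and lists were chosen with earlier results of these data known. Promoters came from RefSeq (GRCm38.p6), overlaps and neighbours from GENCODE M21, and no coordinates were converted to mm9. Alternatives left out each library, on the same genes or with the low filter applied to the rest, or used a block for the replicate number, an added 0.1 or 5 FPKM, no low filter or 5 FPKM, TMM or quantile normalization, removal of Rn45s, or limma without the trend.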

Additional observations from a re-analysis of the deposited data

How the results depend on the processing

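Leaving out 1 library at a time on the same genes turned the 948 genes called into 0 to 184, the members called higher (1) into 0 to 1, the members called lower (1) into 0 to 1, and the median log2 fold change of tested members (0.26) into 0.10 to 0.31. With the low filter applied afresh, 168, 83, 302 and 780 genes were called without YFP 1, YFP 2, DEK 1 and DEK 2, 5 members were higher without DEK 2, and the median was 0.092 to 0.34. No low filter left 293 genes called. The deviations of same-numbered libraries correlated at r = 0.0635 across 12179 genes, which are not independent replicates. This correlation cannot show whether same-numbered libraries were prepared together. With the replicate block 618 genes and 2 members higher were called, Tnnc2 being added. A filter of 5 FPKM likewise gave 2 members higher. The median was 0.14 with 5 FPKM added and 0.13 with Rn45s removed. That removal moved the median of all genes from 0.05 to -0.07, and the share of calls that were higher from 58.8% to 43.2%, with 51.1% under TMM and 45.4% under quantile normalization. Log2 fold changes that turned direction with 1 library left out were those of Tpm2 (-0.31 to 0.11, with 0.092 without DEK 1), Casq1 (-0.16 to 0.36, with -0.051 without DEK 1), Des (-0.48 to 0.10), Myl1 (-0.40 to 1.13) and Tcap (-0.86 to 0.033), called in none of these but Myl1 without DEK 2 (filter applied afresh), and Casq1 was at -0.015 under quantile normalization. Actn3 was called in 16 and Ttn in 14 of 17 alternatives. The cause of these shifts was not tested. Without read counts, the precision of members under 1 FPKM is unknown.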
